A study of Mus musculus with 19 samples.

Results

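Amino acid transporter genes of the mouse were followed across 19 tissues, with 1 RNA-seq library per tissue. The genes were chosen by a rule on their names, set with earlier results of these data known. They are all genes of the Slc1a, Slc3a, Slc7a, Slc36a, Slc38a and Slc43a series, the epithelial members Slc6a13, Slc6a14, Slc6a15, Slc6a18, Slc6a19, Slc6a20a and Slc6a20b of the Slc6a family, and Slc16a10. The rule found 53 genes among 54532 gene rows. Of these, 50 are transporter genes or their heavy chains, and 3 (Slc36a1os, Slc36a3os and Slc7a6os) are genes named for lying opposite a transporter gene. The study's title sets out kidney-specific genes as its aim. Total RNA came from untreated C57BL/6J mice, labelled as males aged 8 weeks on a chow diet, and no genotype or agent separated the tissues. The tissues were aorta, bone, brain, brown adipose tissue (BAT), colon, eye, heart, intestine, kidney, liver, lung, parathyroid, skeletal muscle, skin, spleen, stomach, testis, thymus and white adipose tissue (WAT). Whether RNA from several mice was pooled is not stated in the labels.

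Amino acids cross membranes only with the help of carriers. The Slc1a, Slc6a, Slc36a and Slc38a families are driven by sodium or proton gradients, whereas most Slc7a light chains exchange one amino acid for another and reach the cell surface only when bound to a heavy chain, Slc3a1 or Slc3a2. In the proximal tubule of the kidney and in the small intestine, apical carriers such as Slc6a19 and the Slc3a1 and Slc7a9 pair take amino acids up from the lumen, and basolateral carriers such as Slc3a2 with Slc7a7 or Slc7a8 pass them to the blood. In the brain, glutamate carriers clear the transmitter from synapses, and in the liver Slc38a carriers handle glutamine and alanine.

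Promoter stretches of 100 bases are shown for members highest in intestine or liver whose RefSeq promoter held the hexamer GTTAAT, the core of the site known for the liver, kidney and gut factor HNF1. The Slc6a20b stretch, from the neighbouring kidney gene of Slc6a20a, held none of the motifs searched and is shown for contrast. The Slc7a11 stretch held TGATGNAA, the amino acid response element, on each strand. Capitals mark the motif, written ATTAAC or TTGCATCA where it lies on the opposite strand, and every stretch runs 5′ to 3′ on the gene's own strand (GRCm38.p6, RefSeq).
Slc6a20a: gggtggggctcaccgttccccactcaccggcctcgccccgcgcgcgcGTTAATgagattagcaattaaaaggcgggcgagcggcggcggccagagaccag
Slc6a20b: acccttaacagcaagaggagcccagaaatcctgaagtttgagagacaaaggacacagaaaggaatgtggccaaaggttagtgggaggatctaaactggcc
Slc7a7: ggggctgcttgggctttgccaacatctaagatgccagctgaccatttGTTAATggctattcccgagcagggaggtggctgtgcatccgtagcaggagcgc
Slc7a15: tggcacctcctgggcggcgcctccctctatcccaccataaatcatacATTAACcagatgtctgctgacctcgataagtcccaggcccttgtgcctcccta
Slc16a10: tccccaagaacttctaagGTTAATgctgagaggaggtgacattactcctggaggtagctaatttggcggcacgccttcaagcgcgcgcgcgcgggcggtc
Slc36a1: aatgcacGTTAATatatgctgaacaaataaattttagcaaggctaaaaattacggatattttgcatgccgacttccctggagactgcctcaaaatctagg
Slc6a13: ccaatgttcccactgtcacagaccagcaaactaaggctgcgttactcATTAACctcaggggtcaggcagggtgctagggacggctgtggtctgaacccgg
Slc7a11: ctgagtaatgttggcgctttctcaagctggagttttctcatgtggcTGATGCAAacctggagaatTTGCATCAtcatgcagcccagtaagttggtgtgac
The stretches lie at chr9:123678836-123678935 (minus strand) for Slc6a20a, chr9:123632539-123632638 (minus) for Slc6a20b, chr14:54409506-54409605 (minus) for Slc7a7, chr12:8599197-8599296 (minus) for Slc7a15, chr10:40142405-40142504 (minus) for Slc16a10, chr11:55204090-55204189 (plus) for Slc36a1, chr6:121300625-121300724 (plus) for Slc6a13 and chr3:50443626-50443725 (minus) for Slc7a11. The hexamer began 56 bases before the RefSeq start in Slc6a20a, 68 in Slc6a13 and 86 in Slc7a7, against 183 in Slc7a15, 232 in Slc16a10 and 243 in Slc36a1. RefSeq promoter windows of 300 bases were at hand for 40 of the 53 members, in 53 windows. Searched on both strands, GTTAAT stood in 7 of those 53 windows (13.2%) against 7.10% of 32851 windows of the same length. The 7 genes are the 6 shown with a GTTAAT match and Slc3a1, and 6 of them, all but Slc6a13, were highest in kidney or intestine, out of 13 such members with a window. No share over all genes highest in kidney or intestine was computed, so this count has no background. The whole HNF1 palindrome, which contains the hexamer, was in none of the members' windows and in 0.00913% of all windows. TGATGNAA stood in 4 of 53 windows (7.55%) against 3.97% of all, in Slc7a11, Slc1a4 and Slc7a7. These matches describe letters in the windows only.

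Levels are given as FPKM, fragments per kilobase of gene length and per 1000000 assigned reads. That length is mostly the mean length of a gene's annotated transcripts, and comparisons between different genes depend on it. Assigned reads ranged from 11135276 in colon to 17263334 in parathyroid, so that 3 reads, taken as the floor, stood for 0.174 to 0.269 reads per 1000000. With 1 library per tissue there was no replicate error, and no p-value was computed. The 95% intervals given with ratios are exact binomial intervals on the reads of both libraries and cover counting error only. Of 71 markers assigned to a tissue, 61 were highest in it. In brain this held for only 1 of 4 neuron markers and 1 of 3 astrocyte markers, although both sums were highest there. The kidney library held Xist, the X-inactivation RNA of female cells, at 90.9 FPKM and the eye library at 97.5 FPKM, and both were near 0 for the Y-linked Ddx3y, against their male label. The parathyroid and aorta libraries held Xist at 59.7 and 22.1 FPKM together with Y-linked transcripts. Several libraries also held markers of another tissue, and summed levels of such markers are given beside members that are high in those libraries. In bulk tissue, fewer cells of a type and less RNA per cell cannot be told apart.

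All 53 members reached 1 FPKM in some tissue. A gene was called enriched when its FPKM was at least 1 and, with 0.1 added to both, at least 4 times that of every other tissue. By this rule 19 of 53 members (35.8%) were enriched, against 28.3% of all 27937 genes at 1 FPKM or more and 22.4% of the protein-coding ones, and 18 of the 50 transporter genes were. Testis alone accounted for 15.1% of all genes but for 2 members. Members at 1 FPKM or more in all 19 tissues numbered 13 (24.5%), against 32.5% of all genes. The median member reached 88.5 FPKM in its highest tissue against 24.8 FPKM for all genes, and its median log2 ratio over the next tissue was 1.07 against 0.84. The highest tissue differed from the next beyond counting error for 51 members, the exceptions being Slc38a6 (thymus and lung) and Slc38a9 (testis and spleen).

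Intestine was the highest tissue for 10 members (4.04% of all genes), brain for 9 (9.94%), kidney for 5 (3.24%) and liver for 5 (2.99%), and every other tissue for at most 3. Reads of the 53 genes made up 0.517% of all assigned reads in kidney, 0.450% in liver, 0.402% in intestine and 0.340% in brain. They made up 0.0768% in skeletal muscle and 0.0847% in testis, the lowest shares. The kidney, the liver and the intestine thus held the largest shares of transporter reads.

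**Figure D1:**
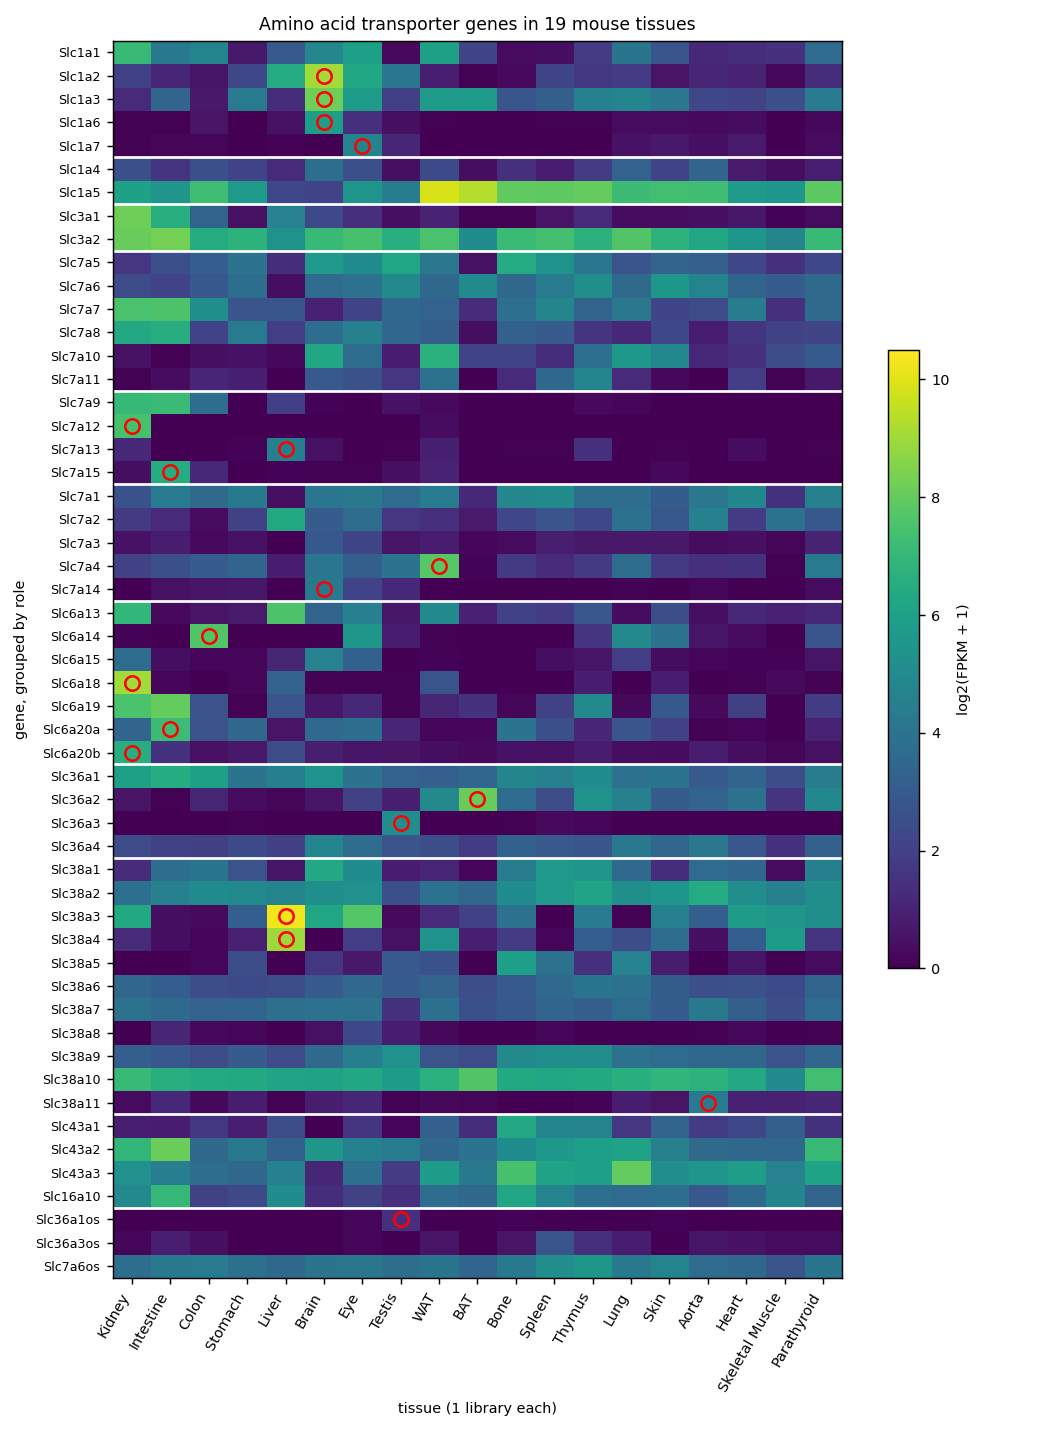
Level of each of the 53 genes (rows, grouped by role between white lines) in each of the 19 tissues (columns, 1 library each) as log2(FPKM + 1), with red circles on the 19 genes called enriched. The brightest cells are Slc38a3 in liver at 1229 FPKM and Slc1a5 in WAT at 943 FPKM, and Slc38a10 and Slc3a2 are bright across every column.

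Of the 5 glutamate carriers, 4 were enriched (28.3% of all genes), 3 in brain and 1 in eye, and Slc1a1 was highest in kidney. Brain enrichment was met by 4 members in all (2.20% of all genes), the fourth being Slc7a14. Slc1a2, the astrocyte carrier that clears most synaptic glutamate, reached 524 FPKM in brain (15281 reads), 88.0 in liver, 77.3 in eye and 16.5 in testis. It lay between 1.03 and 3.81 FPKM in 9 further tissues and below 1 FPKM in the other 6. Brain was 5.95-fold above liver (5.70 to 6.22), the next tissue. Of the 4 hepatocyte markers, Ttr was at 1885 FPKM in brain, and Alb, Apoa1 and Cyp2e1 were each below 1 FPKM there. In liver the neuron markers summed to 8.53 FPKM against 1138 in brain, and the astrocyte markers to 3.89 against 400.1. Their part in the liver level of Slc1a2 was not tested.

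Slc1a3, the carrier of astrocytes and retinal Müller glia, was at 290.0 FPKM in brain, then at 53.0 in eye, 52.0 in WAT and 51.2 in BAT. It was at 1 FPKM or more in 18 tissues and lowest in colon at 0.625 FPKM. Its brain level was 5.48-fold that of eye (5.18 to 5.79). Both calls depended on scaling. With median-of-ratios size factors the brain level with 0.1 FPKM added was 2.83 times the next tissue for Slc1a2 and 3.36 times for Slc1a3, and with upper quartile scaling 2.13 and 2.25 times, so neither passed 4-fold although brain stayed highest. Slc1a6, the carrier of cerebellar Purkinje cells, was at 56.3 FPKM in brain and 1.76 in eye, a ratio of 32.1 (23.3 to 45.3), and under 0.5 FPKM in all 17 other tissues. Slc1a7, the carrier of photoreceptors and bipolar cells, was at 24.7 FPKM in eye against 1.21 in testis, a ratio of 20.5 (15.4 to 27.8), and the eye was enriched for 1.57% of all genes. Slc1a7 lay below 0.7 FPKM elsewhere, brain included at 0.0241 FPKM.

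Slc1a1, the glutamate and cysteine carrier of the proximal tubule and of neurons, was highest in kidney at 134 FPKM, followed by WAT at 61.5, eye at 59.2, brain at 28.0, colon at 25.5, intestine at 18.1 and lung at 16.1 FPKM. Kidney was 2.18-fold above WAT (2.07 to 2.29). It made up 96.6% of the summed level of the glutamate carriers in kidney and 93.5% in colon. The WAT library held the 4 epididymis markers at a sum of 14914 FPKM, against 96.0 in stomach, the next tissue, and their part in its Slc1a1 level was not tested. The summed level of the 5 carriers was 898 FPKM in brain, 216 in eye and 139 in kidney, and 6.41 FPKM in bone, the lowest.

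The neutral exchangers of the same family differed in their highest tissue. Slc1a5, the main glutamine exchanger of dividing cells, was at 943 FPKM in WAT and 650.5 in BAT, then at 262 in thymus, 245 in bone, 237 in spleen and 229.5 in parathyroid. It was lowest in brain at 3.28 and in liver at 3.91 FPKM. WAT stood 1.45-fold above BAT (1.42 to 1.48), and under both other scalings the order of these 2 tissues turned, with BAT at 937 and WAT at 810.1 FPKM under size factors. The part of the epididymis markers in the WAT levels of Slc1a5 and Slc1a3 was not tested. Slc1a4, a carrier of serine and alanine, was highest in brain at 12.9 FPKM with aorta at 9.89 and lung at 8.80, and under upper quartile scaling aorta was higher than brain. Both adipose tissues thus held the highest Slc1a5 levels, and brain was low for Slc1a5 and first or next to it for Slc1a4.

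The heavy chains differed in breadth. Slc3a2, which brings 6 light chains to the surface of nearly all cells, was above 26 FPKM everywhere. It was at 316 FPKM in intestine, 264 in kidney, 197 in lung, 179.9 in WAT, 174 in eye, 163 in spleen, 140.5 in bone, 133 in parathyroid and 132 in brain. It was at 111 FPKM in skin, 108 in stomach, 105 in thymus, 97.7 in testis, 89.1 in colon, 76.0 in aorta, 44.7 in heart, 41.2 in liver, 33.5 in BAT and 26.4 in skeletal muscle. Intestine was 1.20-fold above kidney (1.15 to 1.24).

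Slc3a1, the heavy chain of the cystine and dibasic amino acid carrier, was an epithelial gene by contrast. It stood at 293 FPKM in kidney (11425 reads), 94.7 in intestine, 24.2 in liver, 9.54 in colon, 3.99 in brain, 1.77 in eye, 1.35 in thymus and 1.05 in WAT, and below 1 FPKM in the other 11 tissues. Kidney was 3.10-fold above intestine (2.98 to 3.22), which kept Slc3a1 from being enriched. Without the intestine library kidney was 12.1-fold above liver and the gene was enriched. The liver library held the 8 kidney tubule markers at a sum of 398 FPKM against 9566 in kidney, each at 1.33% to 6.14% of its kidney level (median 3.58%). Slc3a1 in liver was at 8.25% of its kidney level, and the part of those markers in it was not tested. The kidney library held Xist and the liver library Ddx3y, so tissue and sex cannot be told apart in such shares. Slc3a1 overlaps Prepl on the opposite strand, and whether the counting used strand is not given in the sources used here.

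None of the 6 light chains of Slc3a2 was enriched (28.3% of all genes), and 5 of them led the set in at least 1 tissue. Slc7a7, which exports dibasic amino acids across the basolateral membrane, was at 187 FPKM in intestine and 178 in kidney, 36.6 in colon, 26.6 in spleen, 20.3 in heart and 17 in lung. It was between 1.49 and 13.2 FPKM in 12 further tissues and at 0.945 in brain. Slc7a8, a basolateral carrier of neutral amino acids, was at 92.5 FPKM in intestine and 80.4 in kidney, then at 23.1 in eye, 19.4 in stomach, 12.9 in brain, 10 in testis and at most 8.46 FPKM elsewhere, with BAT lowest at 0.307. Together with Slc3a2 these basolateral partners thus had their highest levels in the same pair of tissues.

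Slc7a5, the carrier of large neutral amino acids in dividing cells and at the blood-brain barrier, was at 87.7 FPKM in bone, 73.9 in testis, 50.2 in brain, 40.6 in spleen, 33.3 in eye, 17 in WAT, 16.4 in thymus and 15.1 in stomach. It was below 10 FPKM in the other 11 tissues, with kidney at 2.18 and BAT at 0.376. Under size factors testis stood above bone. Slc7a6, a dibasic exchanger of non-epithelial cells, was at 46.3 FPKM in skin, 35.4 in thymus, 30.7 in BAT, 29.5 in testis and 24.7 in aorta, from 3.36 to 19.4 FPKM in 13 others, and at 0.306 in liver. Under both other scalings its highest tissue was BAT. The skin library held the 3 skeletal muscle markers at a sum of 12553 FPKM against 46866 in skeletal muscle, where Slc7a6 was at 7.37 FPKM, and their part in its skin level was not tested.

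Slc7a10, a carrier of small neutral amino acids including D-serine and a known white adipocyte marker, was at 103 FPKM in WAT, 75.5 in brain, 47.9 in lung, 28.7 in skin, 13.4 in thymus, 12 in eye and 7.27 in parathyroid. It stayed under 5 FPKM in the rest, with intestine at 0.0581. The part of the epididymis markers in the WAT levels of Slc7a10 and Slc7a11 was not tested. Slc7a11, the cystine and glutamate exchanger, was at 25.5 FPKM in thymus, 14 in WAT, 10.6 in spleen, 6.57 in brain and 5.10 in eye, at most 2.87 FPKM elsewhere, and had no reads in liver and aorta.

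Taken as shares of the summed light chain level, Slc7a7 led in kidney (67.1%), colon (65.8%), intestine (64.9%), liver (55.5%) and heart (51.0%). In liver Slc7a7 was at 6.02 FPKM, 3.38% of its kidney level. The kidney tubule markers in liver had a median of 3.58% of their kidney levels, and their part in this lead was not tested. Slc7a10 led in WAT (63.6%), lung (56.7%) and brain (47.8%), and Slc7a5 in bone (70.4%), testis (58.2%), spleen (38.4%) and eye (36.6%). Slc7a6 led in BAT (84.7%), aorta (62.5%), skin (50.4%), skeletal muscle (40%) and thymus (34.7%), and Slc7a8 in stomach (35.7%). In parathyroid Slc7a6 (30.0%) and Slc7a7 were level at 11.4 FPKM, so neither led. These shares are taken within a library and do not depend on the scaling between libraries. They do depend on the length taken for each gene. The sum itself ran from 10.8 FPKM in liver to 288 in intestine, and Slc3a2 from 26.4 to 316.

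**Figure D2:**
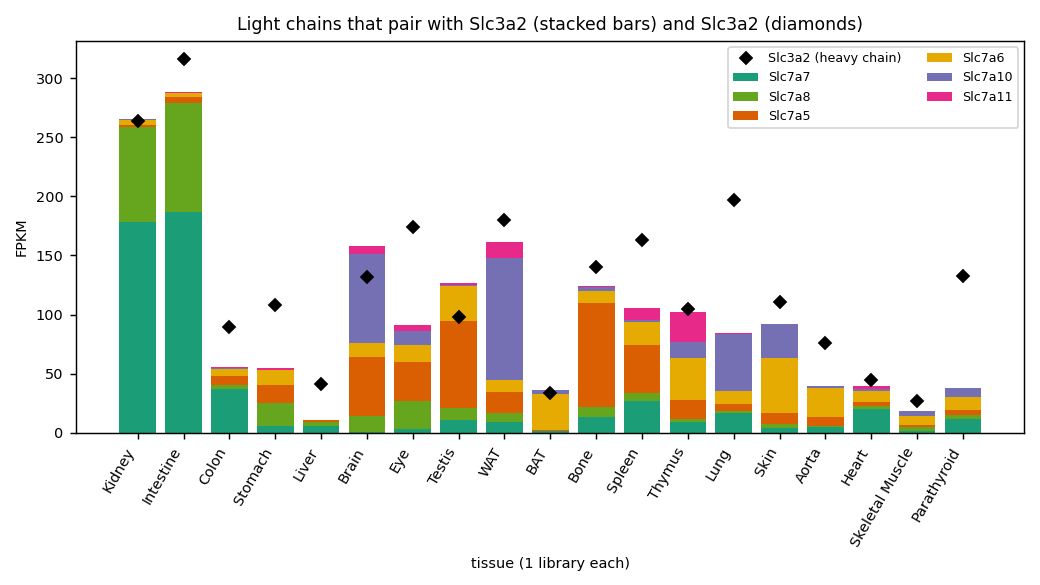
Stacked bars give the FPKM of the 6 light chain genes that pair with Slc3a2, and diamonds the FPKM of Slc3a2, in each of 19 tissues with 1 library each. Slc7a7 and Slc7a8 fill most of the kidney and intestine bars, which reach 265 and 288 FPKM, and Slc3a2 stands above the bar in most other tissues, as in lung at 197 against 84.6 FPKM.

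Of the 4 light chains that pair with Slc3a1 or are related to its partner, 3 were enriched (28.3% of all genes), each in another tissue. Slc7a9, the partner of Slc3a1 in cystine uptake, was at 143 FPKM in intestine and 131 in kidney, 12.5 in colon and 2.84 in liver. It was below 0.5 FPKM in the other 15 tissues, and in 10 of them had no reads. Liver stood at 2.16% of kidney, against 1.33% to 6.14% for the tubule markers, whose part in it was not tested. The 2 leading tissues were 1.09-fold apart (1.04 to 1.15), so Slc7a9 did not share the kidney lead of its heavy chain.

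Slc7a12 (ENSMUSG00000039710, chromosome 3, 14480697 to 14505830, plus strand), a light chain whose heavy chain is not known, had 3715 reads in kidney, or 173 FPKM, and 6 reads in WAT, or 0.279 FPKM. It had no reads in the other 17 tissues, liver included. Kidney was 618-fold above WAT (284 to 1686), and 3 members in all were enriched in kidney (0.745% of all genes). Slc7a12 is known as a female-biased gene of mouse kidney, and the kidney library held Xist whereas the liver library held Ddx3y at 23.6 FPKM and 1 read of Xist. The tissue and the sex of the RNA therefore cannot be told apart for its kidney level or for its lack of liver reads. Slc7a13, which pairs with Slc3a1 in the proximal straight tubule and is known to be higher in male kidney, was at 1.27 FPKM in kidney (1.23 as the mean of the other 2 kidney libraries). It was enriched in liver at 22.4 FPKM, 13.3-fold (10.2 to 17.6) above thymus at 1.68 FPKM, and under 1 FPKM in the other 16 tissues, and liver was enriched for 1.15% of all genes. The liver level was 17.6-fold that of kidney (13.1 to 24.3), and tissue and sex cannot be told apart in that ratio either. The tubule markers summed to 398 FPKM in liver, 25.3 in thymus and 6.87 in WAT, where Slc7a13 was at 22.4, 1.68 and 0.886 FPKM, and their part in its level was not tested.

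Slc7a15, an aromatic amino acid carrier of rodents, was enriched in intestine at 90.1 FPKM (2198 reads), with 1.27 in colon, 1.04 in WAT and less than 0.4 FPKM in the other 16 tissues. Its ratio over colon was 70.7 (46.2 to 115), and intestine was enriched for 0.677% of all genes. Of these 4 light chains, 1 was thus called enriched in each of kidney, intestine and liver, and Slc7a9 was near equality in kidney and intestine. The kidney and liver calls, for Slc7a12 and Slc7a13, set a kidney library with Xist against a liver library with Y-linked transcripts.

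Among the 5 cationic amino acid transporters and their relatives, 2 were enriched (28.3% of all genes). Slc7a1, the general arginine and lysine carrier, was broad, with 32.7 FPKM in spleen, 27.7 in bone, 27.4 in heart and 0.342 in liver, and under both other scalings heart was highest. Slc7a2, the liver and macrophage carrier, was at 82.7 FPKM in liver, 23.3 in aorta, 14.7 in skeletal muscle and 14.1 in lung. At 3.54-fold above aorta (3.35 to 3.75) it was just outside the rule, and under size factors and upper quartile scaling its ratio was 5.61 and 5.12. Liver thus held the least Slc7a1 and the most Slc7a2.

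Slc7a3, a neuronal arginine carrier, was at 6.47 FPKM in brain, 3.64 in eye and under 1 FPKM elsewhere. Slc7a14, a lysosomal protein of neurons, was enriched in brain at 17.7 FPKM, 5.31-fold (4.72 to 5.99) above eye at 3.34, with testis at 1.25 and the other 16 tissues under 0.7 FPKM. Slc7a4, for which no transport activity is established, was enriched in WAT at 218 FPKM (5569 reads), with parathyroid at 19.6, brain at 16.5, testis at 15.1 and lung at 12.1 FPKM. It lay between 1.47 and 9.70 FPKM in 11 tissues, at 0.808 in liver, 0.0792 in BAT and 0.0386 in skeletal muscle. WAT was 11.1-fold above parathyroid (10.2 to 12.2), and 0.920% of all genes were enriched in WAT. The epididymis markers at 14914 FPKM stand in the same library, their part in the Slc7a4 level was not tested, and Slc7a4 also overlaps P2rx6.

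The epithelial Slc6a members gave 4 enriched genes of 7 (28.3% of all genes), and neighbouring genes were highest in different tissues. Slc6a18 (ENSMUSG00000021612, chromosome 13, 73661752 to 73678023, minus strand), a glycine and neutral amino acid carrier of the late proximal tubule, was at 531 FPKM in kidney (18234 reads), 8.77 in liver and 5.66 in WAT. It was below 1 FPKM in the other 16 tissues, intestine included at 0.149. Kidney was 60.6-fold above liver (53.8 to 68.4), and liver stood at 1.65% of kidney. The tubule markers stood at 1.33% to 6.14%, and their part in the liver level was not tested. Slc6a18 had the highest level of all members in kidney.

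Slc6a19 (chromosome 13, 73679745 to 73704865, minus strand), the main neutral amino acid carrier of both brush borders, lies 1721 bases from Slc6a18. It was at 257 FPKM in intestine and 185 in kidney, 31.8 in thymus, 6.43 in skin, 5.84 in liver, 5.38 in colon and at most 3.19 FPKM elsewhere. In thymus the 3 enterocyte markers found summed to 1.70 FPKM, against 6254 in intestine, and the kidney tubule markers to 25.3 FPKM, against 9566 in kidney. The adjacent genes thus shared a high kidney level, and intestine held Slc6a19 at 1.39-fold (1.34 to 1.43) the kidney level and almost no Slc6a18.

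Slc6a20a (chromosome 9, 123634770 to 123678885) and Slc6a20b (chromosome 9, 123590800 to 123632565), proline and imino acid carriers on the minus strand, lie 2204 bases apart and were separated by tissue. Slc6a20a was enriched in intestine at 147 FPKM (5941 reads), with 15.1 in bone, 13 in eye, 11.2 in brain, 10.2 in stomach and 9.67 in kidney, 5.90 in lung, 5.43 in colon and 4.90 in spleen. It was at most 3.11 FPKM in the other 10 tissues, and intestine was 9.76-fold above bone (8.96 to 10.6). Slc6a20b was enriched in kidney at 91.3 FPKM (4332 reads), with 4.49 in liver and 1.90 in intestine and under 1 FPKM in the other 16 tissues. Kidney was 20.3-fold above liver (17.6 to 23.6), and liver was at 4.92% of kidney. The tubule markers were at 1.33% to 6.14%, and their part in the liver level was not tested. The kidney-to-intestine ratio was 48.0 (38.9 to 60) for Slc6a20b and 0.0657 (0.0592 to 0.0727) for Slc6a20a. As closely related genes they could share reads, Slc6a20b also overlaps Sacm1l and Slc6a20a overlaps Ccr9, and how the authors' counting treated such reads is not given in the sources used here.

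Slc6a13, a carrier of GABA and taurine, was at 187 FPKM in liver, 123 in kidney, 31.2 in WAT, 22.8 in eye, 9.52 in brain and 6.25 in thymus, and at 0.202 in intestine. Liver was 1.52-fold above kidney (1.45 to 1.60), at 152% of the kidney level. Slc6a14, a carrier of neutral and cationic amino acids, was enriched in colon at 200.2 FPKM (7656 reads), with 45.8 in eye, 29.9 in lung, 14.7 in skin, 5.55 in parathyroid and 2.10 in thymus, and under 1 FPKM in the other 13 tissues. Colon was 4.38-fold above eye (4.18 to 4.58), just inside the rule, in a tissue enriched for 0.404% of all genes, and intestine had no reads. Slc6a15, a branched-chain amino acid carrier of neurons, was at 24.5 FPKM in brain, 12.1 in kidney, 8.67 in eye, 2.76 in lung and 1.13 in liver.

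**Figure D3:**
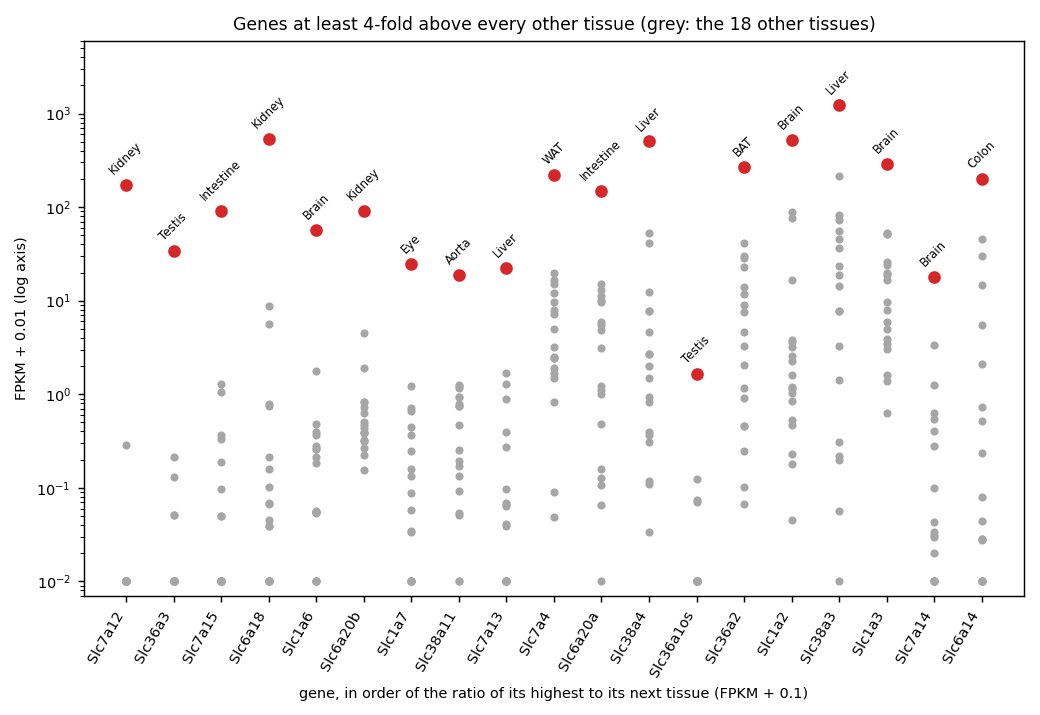
FPKM + 0.01 (log axis) of the 19 enriched genes in the enriched tissue (red, named) and in the 18 other tissues (grey), in order of the ratio of highest to next. Slc7a12 has a single grey point above 0.01, WAT at 0.279 FPKM, whereas Slc38a3 and Slc1a3 have grey points over most of the range below their red one.

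The proton-coupled Slc36a genes split by tissue along a cluster on chromosome 11. Slc36a1, the lysosomal and brush border carrier of small amino acids, was present everywhere, from 4.59 FPKM in skeletal muscle to 88.5 in intestine, with colon at 62.4 and kidney at 61. Slc36a2 (chromosome 11, 55158470 to 55185077, minus strand), a glycine and proline carrier used as a surface marker of brown adipocytes, was enriched in BAT at 269 FPKM (9430 reads). It was at 41.4 FPKM in thymus, 30.1 in WAT, 28.9 in parathyroid, 23.1 in lung, 13.9 in heart and 11.8 in bone, between 1.15 and 9.02 in 6 tissues, and below 1 FPKM in the other 6, intestine and liver among them.

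BAT was 6.49-fold above thymus for Slc36a2 (6.14 to 6.87), in a tissue enriched for 0.254% of all genes. The brown adipocyte markers Ucp1 and Cidea summed to 4079 FPKM in BAT, 514 in thymus and 120.1 in aorta, and their part in the thymus level was not tested. Slc36a3, whose transport function is not known, was enriched in testis at 34.3 FPKM, 166-fold (70.9 to 513) above spleen at 0.206, with no reads in 14 tissues. Slc36a4, a high-affinity proline and tryptophan carrier, ranged from 1.86 FPKM in skeletal muscle to 25.9 in brain. Each of the 3 clustered carriers Slc36a1, Slc36a2 and Slc36a3 thus had its highest level in another tissue.

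Among the 11 Slc38a genes, 3 were enriched, near the share of 28.3% of all genes, and 2 of the 3 were enriched in liver (1.15%). Slc38a3, the glutamine carrier of periportal hepatocytes, astrocytes and proximal tubule, reached 1229 FPKM in liver (27136 reads), the highest level of any member. It was at 214 FPKM in eye, 81.6 in kidney, 73.4 in brain, 55.6 in heart, 45.1 in skeletal muscle, 36.2 in parathyroid, 23.3 in skin, 18.9 in thymus, 14.5 in bone, 7.82 in stomach, 7.73 in aorta, 3.25 in BAT and 1.42 in WAT. It was below 0.3 FPKM in intestine, colon, testis, lung and spleen. Liver was 5.73-fold above eye (5.56 to 5.90).

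Slc38a4, an alanine and cationic amino acid carrier of hepatocytes and muscle, was at 503 FPKM in liver, 53.5 in skeletal muscle, 41.3 in WAT, 12.5 in skin, 7.80 in thymus, 7.71 in heart, 4.57 in lung, 2.70 in eye, 2.66 in bone, 1.99 in parathyroid and 1.48 in kidney. The other 8 tissues were below 1 FPKM, and liver was 9.40-fold above skeletal muscle (9.0 to 9.83). Intestine was at 0.299 FPKM for Slc38a3 and 0.295 for Slc38a4. Slc38a11, a little studied relative, was enriched in aorta at 18.6 FPKM, 14.8-fold (10.2 to 22.3) above intestine at 1.25, with eye at 1.20, parathyroid at 1.16 and the other 15 tissues below 1 FPKM. Aorta was enriched for 0.533% of all genes. The aorta library held the thyroid markers at a sum of 5606 FPKM, against 58858 in parathyroid, and their part in its Slc38a11 level was not tested.

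The system A carriers of small neutral amino acids had broader ranges. Slc38a1 was at 80.9 FPKM in brain, 49.2 in spleen and 43.5 in thymus, and 0.10 in BAT. Slc38a2, induced by amino acid starvation in cultured cells, was at 87.5 FPKM in aorta and 69.9 in thymus and at least 4.91 FPKM everywhere. These neighbours on chromosome 15, with Slc38a4 next to Slc38a2, had brain, aorta and liver as their respective highest tissues.

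Slc38a5, a glutamine and histidine carrier, was at 59.6 FPKM in bone, 23.9 in lung and 14.3 in spleen and had no reads in 6 tissues. Slc38a8, a glutamine carrier of the retina, was at 3.91 FPKM in eye and 1.20 in intestine. Slc38a10 had the highest minimum of any member, from 32.7 FPKM in skeletal muscle to 201 in BAT. Slc38a9, the lysosomal arginine sensor, ran from 4.24 FPKM in BAT to 39.2 in testis, with 36.5 in spleen and 35.6 in thymus. Slc38a6 spanned 4.06 to 16 FPKM, and Slc38a7, a lysosomal glutamine exporter, 1.91 to 17.8 FPKM with its highest tissue aorta here and liver under both other scalings. The Slc38a family, with an enriched share near that of all genes, held carriers enriched in liver or aorta beside genes present in all 19 tissues.

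No facilitated carrier of the Slc43a family was enriched, nor was Slc16a10, against 28.3% of all genes. Slc43a1, a carrier of large neutral amino acids, was at 80.2 FPKM in bone, 3.16-fold (2.94 to 3.39) above spleen at 25.4, with thymus at 24.8 and brain at 0.0234. Slc43a2, its relative, was at 284 FPKM in intestine, 135 in parathyroid and 123 in kidney. Slc43a3, now known as a purine nucleobase carrier, was at 251 FPKM in lung, 175 in bone and 67.7 in parathyroid. Slc16a10, the basolateral aromatic amino acid carrier, was at 126 FPKM in intestine, 72.4 in bone, 33.0 in liver, 29.7 in kidney and 27.2 in skeletal muscle. Bone, which contained erythroid and osteoblast markers, was thus first or next to it for Slc43a1, Slc43a3 and Slc16a10, except that liver came next for Slc16a10 under upper quartile scaling.

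The 3 genes named for the opposite strand were low or broad. Slc36a1os was called enriched in testis at 1.64 FPKM from 29 reads, and the interval of its 14.3-fold ratio (3.61 to 123) reached below 4. Slc36a3os, which lies within Slc36a3, was highest in spleen at 5.71 FPKM and had no reads in testis, where Slc36a3 was at 34.3 FPKM. Slc7a6os, a protein-coding gene, was at 45.5 FPKM in thymus and at least 5.58 everywhere. In all, 23 members overlap another gene, 21 of them on the other strand, and reads of overlapping genes could not be told apart without strand. Among them are Slc7a7 with Oxa1l and Slc7a10 with Lrp3.

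Kidney and intestine shared some of their highest carriers and differed in others. The kidney library held Xist, and the intestine library held Ddx3y at 24.6 FPKM and 5 reads of Xist. Tissue and sex of the RNA cannot be told apart in ratios between them. Slc6a19, Slc7a7 and Slc7a9 were at least 4-fold above all 17 other tissues in both, 3 of 53 members against 18 of 27937 genes (0.0644%). Of 40 members at 1 FPKM or more in either tissue, 20 were higher in kidney and 19 in intestine beyond counting error. At 4-fold, 9 members were higher in kidney (13.2% of all genes) and 6 in intestine (16.7%). The basolateral set lay close to equality, with kidney-to-intestine ratios of 0.95 (0.905 to 0.996) for Slc7a7, 0.869 for Slc7a8 and 0.836 for Slc3a2. Slc7a9 was at 0.917, Slc6a19 at 0.720 and Slc36a1 at 0.689.

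Kidney was higher for Slc6a18 at 3556-fold (1524 to 10954), Slc6a13 at 607-fold (237 to 2228), Slc38a3 at 273-fold (132 to 680.0), Slc6a15 at 39.4-fold and Slc1a1 at 7.38-fold (6.80 to 8.02). It was also higher for Slc6a20b at 48.0-fold, and for Slc7a12, which had 3715 reads in kidney and none in intestine. Intestine was higher for Slc7a15 at 282-fold (143 to 653), Slc6a20a at 15.2-fold (13.8 to 16.9), Slc16a10 at 4.23-fold (3.97 to 4.51) and Slc43a2 at 2.31-fold (2.23 to 2.39). Collectrin (Cltrn), the accessory protein that brings Slc6a19 and Slc6a18 to the surface in kidney, was enriched in kidney at 1237 FPKM and at 0.421 in intestine.

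**Figure D4:**
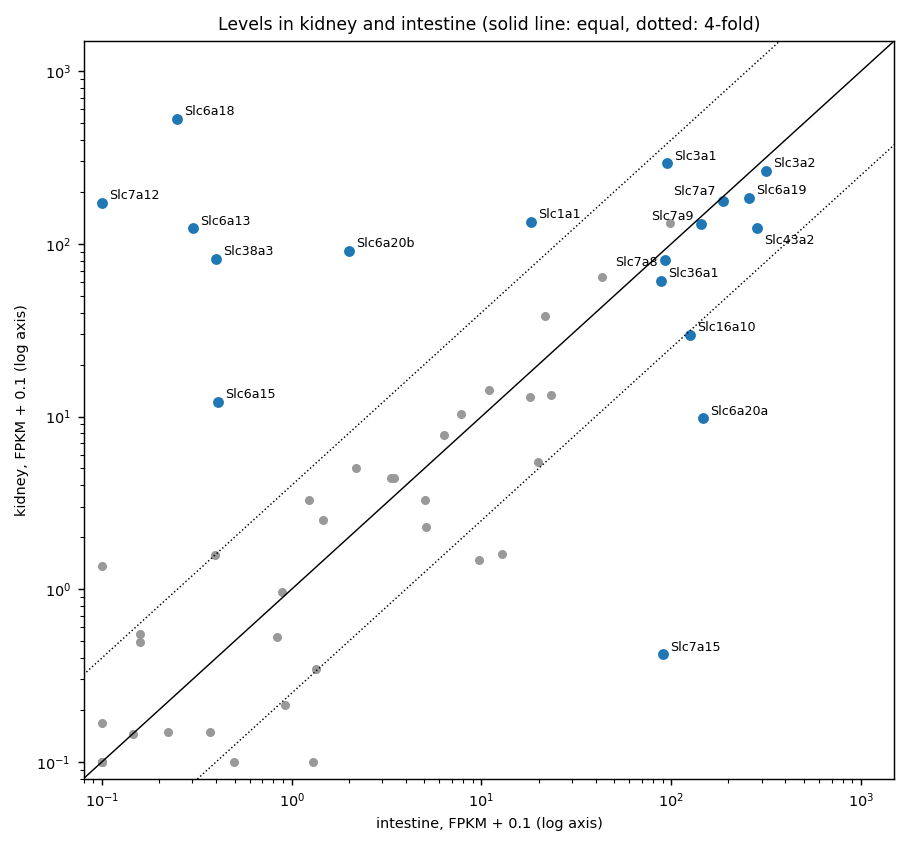
FPKM + 0.1 of the 53 genes in kidney against intestine (log axes, 1 library each), with lines of equal level (solid) and 4-fold difference (dotted) and the named genes in blue. Slc7a7, Slc7a9, Slc7a8 and Slc3a2 lie near the solid line, Slc6a18 far above it and Slc7a15 far below it.

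Other pairs of tissues gave larger or smaller shifts. Against colon, intestine was at least 4-fold higher for 13 of 37 members (7.92% of all genes) and colon for 2 (6.81%). Slc6a19 was 47.8-fold, Slc16a10 40.9-fold, Slc7a8 27.5-fold, Slc6a20a 27.1-fold and Slc43a2 26.8-fold higher in intestine, whereas Slc6a14 had 7656 reads in colon and none in intestine. Against liver, kidney was at least 4-fold higher for 16 of 38 members (20.2% of all genes) and liver for 6 (6.88%). The 6 were led by Slc38a4 at 339-fold (264 to 442), Slc7a2 at 34.4-fold and Slc1a2 at 27.5-fold. The median log2 ratio of kidney to liver was 1.37 for members and 0.80 for all genes. The kidney library held Xist and the liver library Ddx3y, so tissue and sex cannot be told apart in this pair. Intestine and colon thus differed in their leading Slc6a member, Slc6a19 in intestine and Slc6a14 in colon.

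WAT was at least 4-fold above BAT for 18 of 36 members (25.9% of all genes), and BAT for 1 (6.59%), which was Slc36a2 at 8.93-fold (8.38 to 9.52). The median log2 ratio of BAT to WAT was -1.92 for members and -0.82 for all 16613 genes. Slc7a4 was 2754-fold lower in BAT (762 to 22743), from few BAT reads, Slc38a4 50.1-fold, Slc7a5 45.4-fold and Slc7a10 30.8-fold. In this pair the WAT library also held the epididymis markers, and their part in the difference was not tested. Thymus was at least 4-fold above spleen for 8 of 39 members (11.5% of all genes) and spleen for 1 (9.67%). Slc36a2, Slc6a19, Slc38a3, Slc38a4 and Slc7a13 were among the 8. The thymus library held lung epithelium markers at 4051 FPKM and hepatocyte markers at 1326 FPKM beside the brown adipocyte markers. The part of these markers in the thymus levels was not tested. Heart was at least 4-fold above skeletal muscle for 8 of 32 members (16.6% of all genes) and skeletal muscle above heart for 2 (3.69%). Among the 8 were Slc38a1 at 40.5-fold (25.4 to 68.8) and Slc7a1 at 14.4-fold, and the 2 were Slc38a4 at 6.94-fold and Slc7a2 at 5.81-fold. The median log2 ratio of heart to skeletal muscle was 0.77 for members and 0.73 for all genes. The heart library held T cell markers at a sum of 96.3 FPKM, against 0.296 in skeletal muscle. Brown adipocyte markers summed to 58.3 FPKM in heart and 1.18 in skeletal muscle, and lung epithelium markers to 408 FPKM in heart. The part of these markers in the heart levels was not tested. Brain was at least 4-fold above eye for 5 of 44 members (8.15% of all genes), which were the 4 brain-enriched genes and Slc7a10 at 6.31-fold (5.45 to 7.34), and eye above brain for 8 (16.5%). Eye was higher for Slc1a7 at 1025-fold (184 to 40529) and Slc1a5 at 13.4-fold. The eye library held Xist and the brain library Ddx3y at 25.5 FPKM, so tissue and sex cannot be told apart between them. Bone was at least 4-fold above spleen for 3 of 35 members (8.23%) and spleen above bone for 4 (9.48%), near the background in both directions.

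The authors' deposited kidney mean, over 3 libraries that include the single one, allowed a check of the kidney levels. Over 23 members at 10 FPKM or more in kidney, the mean of the 2 other libraries differed from the single library by a median absolute log2 ratio of 0.11, against 0.09 over 7899 genes. Slc6a18 was at 572 against 531 FPKM, Slc6a19 at 179 against 185, Slc3a1 at 316 against 293 and Slc6a20b at 92.7 against 91.3. The members with larger gaps were Slc6a15, at 24.8 against 12.1 FPKM, and Slc7a12, at 248 against 173. In the 2 other kidney libraries Slc6a15 thus stood level with brain, at 24.5 FPKM.

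Neighbouring pathways, listed by function outside the name rule, gave the counts below. By the enrichment rule 28.3% of all genes and 22.4% of protein-coding ones were enriched in some tissue. Of 12 other Slc6a transporters 2 were enriched, the glycine transporter Slc6a5 in brain at 38.7 FPKM and the betaine transporter Slc6a12 in liver at 74.9. The vesicular transporters had 2 of 4 enriched, Slc17a6 at 82.6 FPKM and Slc32a1 at 91.9 FPKM in brain, and Slc17a7 was higher in eye (324) than in brain (116). The peptide transporters had 1 of 4 enriched, Slc15a1 in intestine at 126 FPKM, with its relative Slc15a2 at 115 FPKM in kidney and 7.86 in intestine. Of 8 mitochondrial amino acid carriers 2 were enriched, Slc25a2 in testis at 22.0 and Slc25a18 in brain at 41.0 FPKM. Among the 3 glutamine enzymes, Gls2 was enriched in liver at 327 FPKM, where the glutamine carrier Slc38a3 also had its highest level. None of 6 amino acid response genes and none of the 2 lysosomal transporters found were enriched.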

How the data were processed

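RNA was measured in 19 mouse tissues, 1 library each, grouped by the tissue label. The authors deposited FPKM for 13 tissues, raw read counts for 6 further tissues, and an authors' mean FPKM for kidney. The kit, strand setting, aligner and build were not given in the sources used here, and DESeq2 is named without a role per the submitters' processing notes. From the values, the deposited FPKM is reads over gene length and over the library's assigned reads, with the length the rounded-down mean annotated transcript length for 51 of 53 members (GENCODE M21, GRCm38, which held 99.93% of the identifiers). Whole reads were recovered from it within 0.0001 of a whole number, at least 99.9966% of each library. The deposited counts of 6 tissues were turned into FPKM with the same lengths and formula, so levels across the tables rest on that step. The mean of the 2 other kidney libraries was computed from the authors' mean, since 1119 genes stood at exactly 3 times it.

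Enrichment and ratios followed the fixed rule given in the text, with exact binomial (Clopper-Pearson) 95% intervals, and ratios were printed without the pseudocount of 0.1 FPKM, except that 4-fold counts, median log2 ratios and ratios under other settings include it. Ratios and calls have no replicate error, no p-value was computed, and the rule was tested on simulated data. All members may be named, with values for enriched members and for heavy and light chains. The members and lists were chosen with earlier results of these data known. Roles of genes are background knowledge. Promoter sequences are RefSeq's, 250 bases before to 50 after a start. Coordinates of genes are those of the deposited tables. Alternatives covered pseudocount, level, fold, scaling, tissues and kidney library. Python 3.11.15, numpy 2.4.6, pandas 2.3.3, scipy 1.17.1 and matplotlib 3.10.9 were used. A further gene of the companion lists is not reported here.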

Additional observations from a re-analysis of the deposited data

How the results depend on the processing

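No paired analysis was possible because each tissue has 1 library. Across 17 alternatives, 15 of them planned and 2 (the mean of the 2 other kidney libraries, and leaving out eye) chosen after seeing the data, the count of 19 enriched members ranged from 13 at a fold of at least 8 to 28 at a fold of at least 2, and no enriched member fell below another tissue wherever its enriched tissue was among those compared. Leaving out liver, aorta, WAT, intestine or eye, or keeping the 13 tissues alone, removed that tissue for some members, for which this could not be checked. The count enriched in kidney went from 3 to 5 at a fold of at least 2, to 7 in the 13 tissues of the FPKM table alone and to 7 without the intestine library, the added members being Slc7a7, Slc6a19, Slc3a1 and Slc7a9 in the latter cases. The count highest in kidney went from 5 to 10 in the 13 tissues and to 10 without intestine. Both settings lacked the intestine library, in which Slc7a7, Slc6a19 and Slc7a9 were highest and Slc3a1 stood next to kidney. The count enriched in brain went from 4 to 1 at a fold of at least 8, and to 2 with median-of-ratios size factors and 2 with upper quartile scaling, where Slc1a2 and Slc1a3 were lost. Relative to total reads, those scalings shifted libraries by -0.51 (thymus) to 0.84 (liver and skeletal muscle) and by -0.83 (eye) to 1.21 (skeletal muscle) on the log2 scale, and each gave 5 members another highest tissue. Of 859 values of single members under the alternatives, 830 stayed on their side of the rule, 17 newly passed it and 12 no longer did. Slc7a2 passed at 5.61 without the aorta library, Slc38a8 at 4.67 without intestine and Slc7a3 at 6.06 without eye. Depth limits only the lowest values, such as Slc36a1os with 29 reads.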
